A study of Mus musculus with 15 samples.

Results

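Brain messenger RNA was compared between mice whose middle cerebral artery had been occluded and that had received vehicle, and mice given a sham operation. All genes with at least 10 counts in 3 or more of the 6 libraries of these groups were kept, which gave 14794 of the 18931 genes in the deposited table, and the 6 libraries are among 15 in the series. The mice were of the outbred Kunming stock, and the other 9 libraries, from occluded mice under treatments labelled JA, UA and JU, entered no comparison here. The labels class sham and vehicle samples alike under MCAO mice and tell them apart by treatment. No source used here states age, sex, brain region, hemisphere, the length of occlusion, the time of sampling, the nature of the vehicle or whether animals were pooled.

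Occlusion of the middle cerebral artery is the standard rodent model of focal ischemic stroke. Neurons in the core of the lesion die, and over the following days microglia and macrophages from the blood take up the debris, astrocytes become reactive, and scar matrix is laid down around the lesion. In bulk tissue, fewer cells of a type and less RNA per cell cannot be told apart.

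The libraries held 19075346 to 20447465 counts and detected 16582 to 17052 genes. The defining transcripts of neurons (Snap25), astrocytes (Slc1a2) and oligodendrocytes (Mbp) were present in all 6 libraries, with values below. On a first principal component with 76.3% of the variance the sham libraries lay between -44.8 and -44.3 and the vehicle libraries lay at 26.7, 78.2 and 28.6. Vehicle replicate 2 stood apart from the other vehicle libraries, on the side away from sham. Nothing in the labels ties each library to an animal of its own, and every p-value here is set against the variation among these 6 samples, part of which may be technical. Replicates differed by more than sampling noise, as chi-square over genes divided by its degrees of freedom was 5.02 to 7.63 between sham replicates and 12.9 to 65.7 between vehicle replicates.

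Occlusion was accompanied by gains in some transcripts and losses in a similar number, and the gains were larger than the losses. By edgeR's quasi-likelihood test at an adjusted p under 0.05, 2028 genes (13.7%) were higher in vehicle and 1729 (11.7%) were lower, together 25.4% of the genes tested. The median log2 fold change was 1.12 among the higher genes and -0.46 among the lower, and 489 higher genes but only 7 lower ones passed the threshold with more than a 4-fold change. At least a 2-fold change was reached by 1108 higher genes (7.49%) and 59 lower genes (0.399%). In TMM-scaled CPM, which express a count relative to the library total, the 3 libraries of a group did not overlap those of the other for 3647 genes higher in vehicle (24.7%) and 3706 lower (25.1%), or 49.7% of all. The median over all genes tested was -0.00 on the log2 scale. At the edge of the count filter, 292 genes reached 10 counts in exactly 3 libraries (median level 0.632 CPM) and 253 genes in exactly 2 (median 0.421 CPM), and a gene that entered only through its higher group had to differ. Of the 292, 124 were higher and 5 lower.

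The higher genes took 5.70% to 5.80% of the counts of the sham libraries and 10%, 16.9% and 10.7% of those of vehicle replicates 1, 2 and 3. The lower genes took 21.5% to 22.5% of the counts in sham and 17.1%, 14.8% and 17.1% in vehicle. Replicate 2 was the highest of the 3 vehicle libraries for 90.4% of the higher genes and the lowest of them for 76.8% of the lower ones. Without it, 2005 genes were higher and 2229 lower, but 716 rather than 1108 were higher by at least 2-fold. The filter of 10 counts in 3 libraries then needed at least 1 sham library, and 3633 of the 3757 called genes were still tested. The part of the filter in the lower count was not tested.

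The number of calls depended on the sham group. Without sham replicate 1, 372 genes were higher and 346 lower, and without sham replicate 2 only Ccl6, Clec7a, Col10a1 and Ctse passed, all higher. Without sham replicate 3, Col10a1 and Ctse passed. In each of these fits 4579 to 4963 genes had an unadjusted p under 0.05, against 6084 with all 6 libraries, and all 3752 of the called genes still tested kept their direction. The list counts below therefore fell to 0 without sham replicate 2 or 3, apart from Clec7a and Ccl6 without replicate 2. Values without sham replicate 1 are given beside many of them. With all 15 libraries in 1 fit, 126 genes were higher and 678 lower, and without JU replicate 1 in that fit 2574 were higher and 2575 lower.

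**Figure D1:**
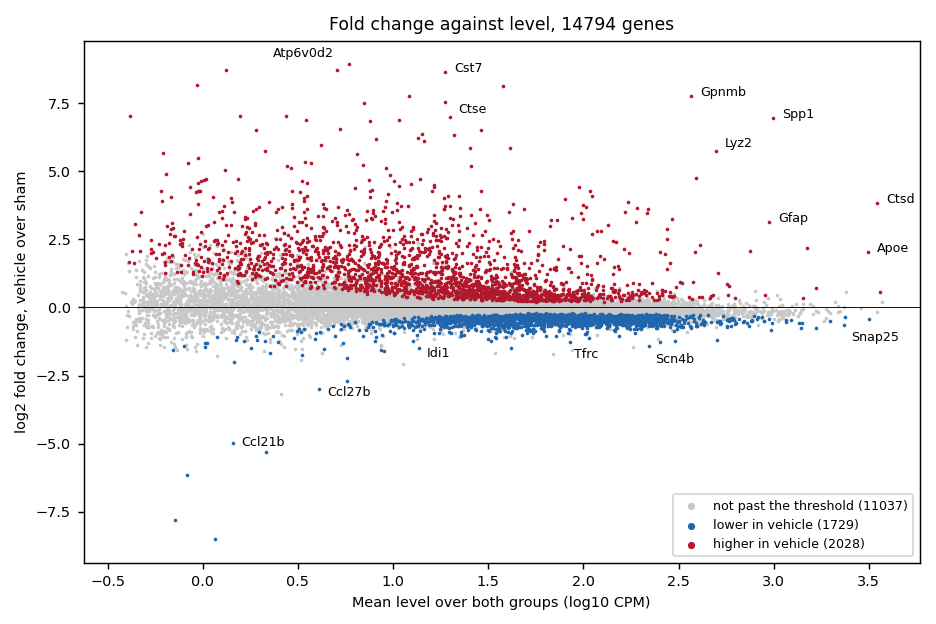
Fold change of vehicle over sham (log2 scale) against the mean level of both groups (log10 CPM), with 1 point for each of the 14794 genes tested; red points are the 2028 genes higher in vehicle, blue points the 1729 lower and grey points the rest. Higher genes spread upward, with Gpnmb at a log2 fold change of 7.76, while most blue points lie close under 0.

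Among the largest gains were genes known from activated phagocytes. Spp1, which encodes the secreted protein osteopontin (chromosome 5, 104435118 to 104441050, GRCm38), stood at 11.1, 13.5 and 23.3 CPM in sham replicates 1, 2 and 3 and at 1853, 3063 and 1007 CPM in vehicle replicates 1, 2 and 3, the order used for all values below. Its log2 fold change was 6.95 ± 0.54 (SE, n = 3 per group, adjusted p = 0.00643). Gpnmb, a membrane glycoprotein of phagocytes (chromosome 6, 49036546 to 49070929), was at 2.8, 2.74 and 4.61 CPM in sham and 543, 1422 and 234 CPM in vehicle (7.76 ± 0.80, adjusted p = 0.00682). For both, the lowest vehicle library lay far above the highest sham library, and the vehicle libraries differed several-fold among themselves.

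Further large gains were measured among genes with a mean of at least 1 CPM in both groups. Lyz2, the lysozyme of myeloid cells, was at 14.8, 19.8 and 20 CPM in sham and 492, 1891 and 542 CPM in vehicle (5.74 ± 0.62). Lgals3, which encodes the lectin galectin-3, was at 1.32, 1.79 and 1.11 CPM in sham and 42.1, 181 and 21.1 CPM in vehicle (5.85 ± 0.95). Mpeg1, whose product perforin-2 makes pores in engulfed bacteria, was at 29.6, 23.5 and 31 CPM in sham and 370.0, 1242 and 645 CPM in vehicle (4.74 ± 0.46). These groups did not overlap, and replicate 2 was again the highest. Cd84 (5.19), the adhesion receptor Siglec1 (4.73), Ms4a6c (4.52), the actin-capping Capg (4.50), the transporter Abcc3 (4.44), the lipid droplet coat Plin2 (4.43) and the Toll-like receptor relative Cd180 (4.27) completed the 12 largest log2 fold changes among genes of at least 1 CPM in both groups.

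The next set was drawn from higher genes of at least 1 CPM in vehicle whose groups did not overlap, leaving out predicted genes. Of these, 25 had at most 3 counts in every sham library and entered the test only with vehicle libraries. Cst7, an inhibitor of lysosomal proteases, had 3, 0 and 2 counts in sham and 207, 849 and 1241 counts in vehicle. Cd22, an inhibitory receptor that binds sialic acid, had 1, 0 and 0 counts in sham and 131, 366 and 120 counts in vehicle. Atp6v0d2, a subunit of the proton pump of lysosomes, had 1, 0 and 0 counts in sham and 100, 542 and 68 counts in vehicle. The fitted fold changes of such genes depend on the prior count of the fit, so only their counts are given. Hal, Tgm1 and Lilr4b showed the same pattern, with 0 to 3 counts in each sham library and 50 to 673 in each vehicle library.

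The genes with the smallest p-values among the higher ones included several whose vehicle libraries were close to each other. Ctse, which encodes the aspartic protease cathepsin E, had 0.106, 0.211 and 0.583 CPM in sham and 30.7, 37.6 and 49.8 CPM in vehicle (log2 fold change 7.01 ± 0.40, adjusted p = 0.00254). Col10a1, the gene of collagen X, was at 0.422, 0.316 and 0.318 CPM in sham and 10.5, 16.2 and 13.9 CPM in vehicle (5.24 ± 0.27, adjusted p = 0.00169). Col10a1 overlaps exons of Nt5dc1 on the opposite strand, and since the strand setting of the counting is not known its reads are uncertain. Slc16a3, the exporter of lactate from glycolytic cells, was at 4.33, 4.21 and 4.19 CPM in sham and 13.4, 13.9 and 12.2 CPM in vehicle (1.63 ± 0.13, adjusted p = 0.00643), with little spread in either group. Rasal3, a regulator of Ras in blood cells, went from 2.27 to 2.48 CPM in sham to 9.77 to 14.9 CPM in vehicle (2.41 ± 0.20, adjusted p = 0.00643).

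**Figure D2:**
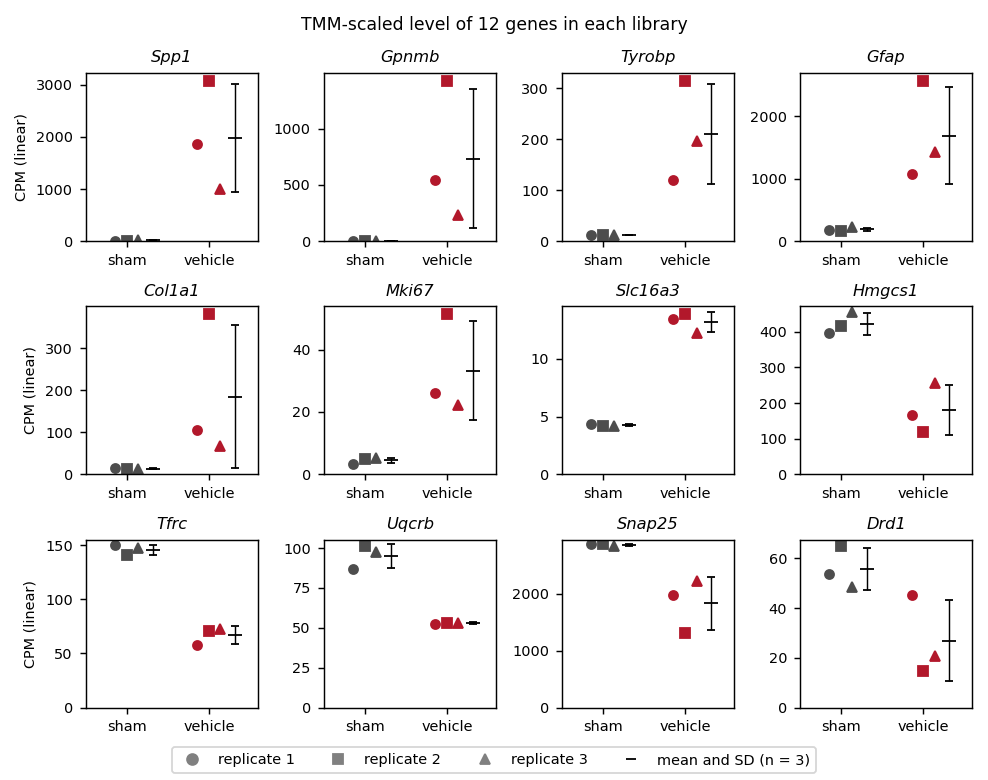
Level of 12 genes (TMM-scaled CPM, linear axes from 0) in each of the 3 sham (grey) and 3 vehicle (red) libraries, with a marker shape per replicate number and the mean with SD (n = 3) beside each group. Vehicle replicate 2 (square) is the highest for Spp1, Gpnmb, Tyrobp, Gfap, Col1a1 and Mki67 and the lowest for Hmgcs1, Snap25 and Drd1, while Slc16a3 and Uqcrb hardly vary within a group.

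The largest losses were at Ccl21b (-4.97 ± 0.41) and Ccl27b (-3.00 ± 0.28), chemokine genes with near-identical copies, and at Gm12407 and 3 uncharacterized genes, all under 1 CPM in vehicle. These genes stood at the sham level or above in JA replicate 3 and UA replicate 3, but not in the other libraries of those groups. All of these mice were occluded, so the losses did not hold across occluded libraries. Among genes of at least 1 CPM in both groups, Prss56, a serine protease, was at 5.12, 12.9 and 11.9 CPM in sham and 0.416, 1.61 and 2.47 CPM in vehicle (-2.72 ± 0.59, adjusted p = 0.0193), and its call was lost without vehicle replicate 2. Prss56 had 97, 244 and 224 counts in sham and 8, 33 and 51 counts in vehicle. In treated occluded mice it had 12, 72 and 276 counts in JA, 191, 9 and 48 in UA and 33, 126 and 132 in JU libraries. It thus varied widely within groups. Slc35d3, a transporter of the solute carrier family, was at 7.82, 10.4 and 8.69 CPM in sham and 3.48, 1.12 and 2.81 CPM in vehicle (-1.86 ± 0.37, adjusted p = 0.016). Smim18 (-1.74), the actin-binding Nexn (-1.58), Gpr21 (-1.53), which lies within Rabgap1, and the troponins Tnnc1 (-1.60) and Tnnt1 (-1.29) were also among the 12 largest of these. The lower genes with the smallest p-values changed less and were more abundant. Ppp1cb, a catalytic subunit of protein phosphatase 1, was at 317, 322 and 339 CPM in sham and 200.3, 204 and 206 CPM in vehicle (-0.68 ± 0.07, adjusted p = 0.00682). Calm2, a calmodulin gene and by FPKM the most abundant of the lower genes in sham, was at 1965, 2104 and 2156 CPM in sham and 1377, 1027 and 1333 CPM in vehicle (-0.74 ± 0.13, adjusted p = 0.0126). The vehicle libraries of Ppp1cb were nearly alike, whereas those of Calm2 were lowest in replicate 2, and the groups did not overlap for either.

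Genes were then read by function, in lists whose members are given as counts past the threshold and as a median log2 fold change beside the median of -0.00 over all genes. Each list count is to be read beside the shares over all genes, 13.7% higher and 11.7% lower. Without overlap between the groups, 24.7% were higher and 25.1% lower. Members with fewer than 3 sham libraries at 10 counts entered the test with the help of vehicle libraries, so the count over members with at least 10 counts in all 6 libraries (called well-counted members) is given as well for the lists this touches most. Microglia, the resident phagocytes of the brain, carry a set of genes in the resting state that is often reduced when they are activated. Here 12 of 13 such genes rose and none fell, with a median of 1.45. P2ry12, the purinergic receptor that guides microglial processes, was at 57.5, 75.4 and 72.5 CPM in sham and 106, 129.7 and 145 CPM in vehicle (0.89 ± 0.15, adjusted p = 0.0107). Tmem119, a membrane protein found in microglia and hardly in other macrophages, was at 26, 25.3 and 26.4 CPM in sham and 49.9, 105 and 84.8 CPM in vehicle (1.62 ± 0.25, adjusted p = 0.00986). Sall1, the transcription factor of microglial identity, rose from 28.1, 26 and 29.3 CPM to 48.4, 70.5 and 60.2 CPM (1.10 ± 0.14, adjusted p = 0.00686). Csf1r, the receptor on which microglia depend for survival, reached 273, 535 and 407 CPM from 91.4, 102 and 106 CPM (2.02 ± 0.23, adjusted p = 0.00686). Slc2a5, a fructose transporter, was the member that did not pass (0.83 ± 0.28, adjusted p = 0.0676). Without sham replicate 1, 8 members passed.

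All 20 genes of the reactive microglia list rose, with a median of 3.92, and the groups did not overlap for any. Of these, 16 were well counted, with a median of 2.12. Their summed level was 2440.4 to 2581 CPM in sham and 12906, 28411 and 13436 CPM in vehicle. Tyrobp, the adaptor through which TREM2 signals, was at 12.6, 12.3 and 12.3 CPM in sham and 120.0, 314 and 196 CPM in vehicle (4.08 ± 0.35, adjusted p = 0.00643). Clec7a, the beta-glucan receptor dectin-1, was at 0.581, 0.369 and 0.583 CPM in sham and 31.6, 60.4 and 32.6 CPM in vehicle (6.33 ± 0.38, adjusted p = 0.00254). Itgax, the integrin subunit CD11c, had at most 0.317 CPM in sham and 12.2, 41.6 and 10.4 CPM in vehicle. Apoe, the lipid carrier of the brain, was abundant in sham already and rose from 1162 to 1259 CPM to 3848, 7230.2 and 3972 CPM (2.04 ± 0.25, adjusted p = 0.00686). The smallest gain was that of Axl, a receptor for dying cells (0.90 ± 0.18, adjusted p = 0.0158), and Aif1, the gene of the microglial stain IBA1, went from 3.85, 7.38 and 4.61 CPM to 11.6, 35.0 and 19.3 CPM (2.06 ± 0.43, adjusted p = 0.0181). Without sham replicate 1, 13 of the 20 passed.

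Markers of macrophages that enter from blood or line vessels rose in part. Of 13 measured members 10 were higher and none lower, with a median of 2.29, and their summed level was 125 to 138 CPM in sham and 654, 1416 and 451.5 CPM in vehicle. Among 8 well-counted members 5 rose, with a median of 1.42. Ccr2, the chemokine receptor of blood monocytes, was low throughout, at 0.37, 0.316 and 0.583 CPM in sham and 2.18, 2.05 and 2.03 CPM in vehicle (2.29 ± 0.33, adjusted p = 0.00873). Arg1, an arginase of wound macrophages, was at 7.64 and 7.96 CPM in vehicle replicates 1 and 2 but at 0.58 CPM in replicate 3, against 0.0527 to 0.264 CPM in sham (5.19 ± 1.12, adjusted p = 0.0191). Cd5l, a secreted protein of macrophages, was at 0.211, 0 and 0.583 CPM in sham and 17.2, 185 and 25.3 CPM in vehicle. The markers of vessel-lining macrophages Mrc1 (0.92 ± 0.35, adjusted p = 0.0956), Cd163 (0.70 ± 0.38, adjusted p = 0.203) and Lyve1 (0.37 ± 0.49, adjusted p = 0.596) did not pass. Ly6c2 and Chil3 were below the count filter. Without sham replicate 1, 3 members passed.

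Markers of other leukocytes were near the floor of detection. Of 13 neutrophil markers 6 were measured and 2 rose, with a summed level of 6.2 to 12.7 CPM in sham and 25.7, 61.9 and 51.5 CPM in vehicle. Most of that sum was Csf3r, the receptor for granulocyte colony-stimulating factor, at 2.8, 4.48 and 4.56 CPM in sham and 20.1, 46.7 and 45.3 CPM in vehicle (3.24 ± 0.37, adjusted p = 0.00686), a gene that microglia express too. The neutrophil genes Ly6g, Camp, Ltf, Retnlg, Mpo and Elane were below the filter, and S100a8 (-0.37 ± 0.63, adjusted p = 0.69) and S100a9 (-0.51 ± 0.50, adjusted p = 0.475) did not pass. Of 15 markers of T, B and natural killer cells 3 passed the filter on low counts, and none of these passed the test by edgeR or by DESeq2, while 2 had an unadjusted p under 0.05 by edgeR.

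Receptors for antibody and the signaling proteins behind them rose together. All 15 members of this list were higher, with a median of 2.78 and no overlap between the groups, and 13 of them passed without sham replicate 1. All 13 well-counted members rose, with a median of 2.72. Fcgr2b, the inhibitory receptor for immunoglobulin G, was at 3.75, 3.11 and 2.97 CPM in sham and 24, 40.3 and 24.9 CPM in vehicle (3.18 ± 0.24, adjusted p = 0.0064). Fcer1g, the signaling chain shared by the activating receptors, was at 7.71, 5.95 and 8.58 CPM in sham and 51.5, 142 and 75.9 CPM in vehicle (3.60 ± 0.39, adjusted p = 0.00686). Plcg2, the phospholipase downstream of these receptors, rose from 4.86, 5.48 and 5.14 CPM to 20.2, 40.5 and 24.5 CPM (2.46 ± 0.27, adjusted p = 0.00682). The oxidase with which phagocytes make superoxide followed the same course: all 7 measured genes of its subunits and partners rose, with a median of 3.04, and 6 did so without sham replicate 1. All 6 well-counted ones are among them. Cybb, its catalytic subunit, was at 1, 1.42 and 0.318 CPM in sham and 11.7, 40.4 and 9.34 CPM in vehicle (4.48 ± 0.75, adjusted p = 0.0112). Ncf1, its cytosolic organizer, reached 36.8, 79.9 and 43.1 CPM from 7.29, 7.80 and 7.89 CPM (2.80 ± 0.30, adjusted p = 0.00682).

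Complement genes, which tag debris and synapses for uptake, rose in 13 of 15 cases with a median of 3.23, and in 8 without sham replicate 1. It was 10 of 12 for well-counted members, with a median of 2.74. The genes of the 3 chains of C1q rose together, with C1qa at 31.7, 29.9 and 35.8 CPM in sham and 233, 638 and 338 CPM in vehicle (3.63 ± 0.37), C1qb at a log2 fold change of 3.66 and C1qc at 3.88. C3, the central protein of the cascade, had vehicle values close to each other, at 1.95, 1 and 0.954 CPM in sham and 16.5, 15 and 11.6 CPM in vehicle (3.46 ± 0.30, adjusted p = 0.00643). C3ar1, the receptor for its fragment C3a, went from at most 1.11 CPM to 33.5, 95.1 and 20.5 CPM (5.84 ± 0.74, adjusted p = 0.00691). C2 (0.49 ± 0.46, adjusted p = 0.449) and Cfb (1.62 ± 0.63, adjusted p = 0.0951), the proteases of the convertases, did not pass.

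Among chemokines and their receptors 12 of 15 measured genes rose with a median of 2.34, and 3 did so without sham replicate 1. Only 9 were well counted, of which 6 rose, with a median of 1.37. Ccl6, a ligand of myeloid cells, was at 3.01, 2 and 3.39 CPM in sham and 27.6, 43.4 and 31.7 CPM in vehicle (3.61 ± 0.25, adjusted p = 0.00392). Ccl2, the ligand of CCR2, had 0.0528 to 0.105 CPM in sham and 1.09, 3.61 and 0.967 CPM in vehicle. Ccl5, Ccl7, Cxcl1, Cxcl2, Cxcl9 and Cxcl13 were below the filter. The members that did not pass were Cxcl12 (0.09 ± 0.16, adjusted p = 0.694), Cxcl14 (-0.08 ± 0.07, adjusted p = 0.428) and Cx3cl1 (-0.28 ± 0.20, adjusted p = 0.331).

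Cytokines of the interleukin and tumor necrosis factor families were mostly at low levels. In that list 12 of 17 members rose and 1 fell, with a median of 1.91, and 6 rose without sham replicate 1. Among 11 well-counted members 8 rose and 1 fell, with a median of 1.88. Tnf had 0 to 0.053 CPM in sham and 1.20, 1.17 and 1.31 CPM in vehicle. Il1b, the cytokine released by inflammasomes, did not pass, at 0.475, 0.158 and 0.742 CPM in sham and 0.675, 1.07 and 0.58 CPM in vehicle (adjusted p = 0.337), and Il6 and Il10 were below the filter. Tgfb1, which restrains microglia, rose from 6.92, 7.64 and 6.62 CPM to 28.1, 70.0 and 37.5 CPM (2.68 ± 0.34, adjusted p = 0.00691), together with its receptor gene Tgfbr2 (2.11 ± 0.28, adjusted p = 0.00772). Il18 was the member that fell (-0.49 ± 0.15, adjusted p = 0.0499), a call lost with RLE or upper quartile factors, limma voom or the GC offset.

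Sensors of microbial and danger signals rose in 14 of 17 cases, with a median of 2.10, and in 6 without sham replicate 1. It was 13 of 16 for well-counted members. Tlr2, a receptor for lipoproteins, was at 2.06, 2.48 and 1.17 CPM in sham and 9.66, 24.5 and 14.7 CPM in vehicle (3.10 ± 0.42, adjusted p = 0.00781). Cd14, its co-receptor, was at 3.59, 3.58 and 3.81 CPM in sham and 16.1, 43.6 and 20.5 CPM in vehicle (2.87 ± 0.39, adjusted p = 0.00781). Pycard, the adaptor that links inflammasome sensors to caspase-1, was at 2.69, 2.27 and 2.54 CPM in sham and 10.5, 21.3 and 13.6 CPM in vehicle (2.60 ± 0.28, adjusted p = 0.00682). Casp1 itself (1 ± 0.37, adjusted p = 0.083) and Tlr3 (0.24 ± 0.18, adjusted p = 0.343) did not pass. Of the NF-kB genes, which act downstream of these sensors, 9 of 13 rose with a median of 0.89, and 2 did so without sham replicate 1. Nfkb1 rose by a log2 fold change of 1.02 ± 0.17 (adjusted p = 0.011) and the atypical inhibitor Bcl3 by 2.77 ± 0.44 (adjusted p = 0.0102).

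The promoter of Pycard is shown because it holds the letters read by PU.1, the transcription factor that sets up myeloid cells. RefSeq promoters (GRCm38.p6, the 250 bases before the start) were matched for 11722 of the genes tested, and motifs were searched on both strands, here and below. GAGGAAGT or its complement was found in 2.23% of all these promoters, in 5.22% of those of genes higher by at least 2-fold and in 1.51% of those of lower genes. A match describes letters and does not show a bound site. The stretch lies at chr7:127993868-127994117 on the minus strand, and the capitals mark the match, on the strand opposite to the gene, starting at position -44 from the start of transcription.
Pycard: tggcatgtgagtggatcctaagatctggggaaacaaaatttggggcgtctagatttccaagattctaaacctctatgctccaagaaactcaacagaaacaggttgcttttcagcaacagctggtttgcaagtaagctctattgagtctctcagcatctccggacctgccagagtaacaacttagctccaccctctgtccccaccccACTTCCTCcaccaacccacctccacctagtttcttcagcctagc

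Interferon-stimulated genes rose in 8 of 16 cases, with a median of 0.87 and none lower, and in 1 without sham replicate 1. Sham replicate 2 was the highest sham library for many of them, with a list score (the average log2 CPM over members, set to 0 at the sham mean) of 0.45 against -0.36 and -0.09 in the other sham libraries and 0.67, 1.38 and 0.85 in vehicle. Oas1a, a sensor of double-stranded RNA, was at 0.581, 1.26 and 0.689 CPM in sham and 2.23, 4.98 and 2.95 CPM in vehicle (2 ± 0.43, adjusted p = 0.0189). Ifi27l2a was at 0.739, 1 and 1.48 CPM in sham and 5.66, 8.26 and 6.14 CPM in vehicle (2.63 ± 0.31, adjusted p = 0.00686). Isg15, the ubiquitin-like tag of the response, was at 1.90, 3.90 and 1.85 CPM in sham and 3.01, 5.03 and 3.43 CPM in vehicle, so that its groups overlapped (0.58 ± 0.36, adjusted p = 0.265). With an offset for GC content 5 of the 16 rose.

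The promoter of Oas1a shows the element to which interferon-activated factors bind. The letters TTTC, 2 bases of any kind and TTTC, on either strand, were present in 2.54% of all promoters, in 5.22% of those of genes higher by at least 2-fold, and in 7 of 13 promoters of the interferon list, namely those of Ifit1, Ifit3, Isg15, Stat2, Oas1a, Bst2 and Rsad2. These 7 include genes that did not pass the test. The stretch lies at chr5:120907526-120907775 on the minus strand, and its capitals cover 2 overlapping matches on the opposite strand, starting at positions -20 and -14.
Oas1a: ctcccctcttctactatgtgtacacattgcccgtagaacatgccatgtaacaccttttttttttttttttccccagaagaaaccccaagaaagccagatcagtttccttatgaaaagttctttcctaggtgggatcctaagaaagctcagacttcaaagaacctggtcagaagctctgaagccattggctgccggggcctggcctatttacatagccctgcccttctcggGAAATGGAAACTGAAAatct

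Genes of antigen presentation rose in 8 of 16 cases, with a median of 1.37, and in 1 without sham replicate 1. B2m, the light chain of class I molecules, was at 62.5, 110.3 and 86.1 CPM in sham and 158, 259.6 and 187 CPM in vehicle (1.22 ± 0.25, adjusted p = 0.0168). Cd74, the chaperone of class II molecules, was at 5.02, 13.1 and 6.89 CPM in sham and 26.2, 30.1 and 20.8 CPM in vehicle (1.63 ± 0.34, adjusted p = 0.0176). The class I heavy chain H2-K1 scattered from 5.12 to 32.1 CPM in sham and from 5.52 to 32.6 CPM in vehicle (adjusted p = 0.844). The mice are outbred and these genes vary in sequence between individuals, and the part of that in the scatter was not tested.

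Genes of lysosomes, where engulfed material is broken down, rose in 20 of 22 cases, with a median of 2.05, and in 9 without sham replicate 1. It was 19 of 21 for well-counted members. Ctsd, the aspartic protease cathepsin D (chromosome 7, 142375911 to 142388038), was at 481, 447 and 441 CPM in sham and 4055, 10314 and 5296 CPM in vehicle (3.85 ± 0.36, adjusted p = 0.00682). Grn, the gene of progranulin, was at 57.2, 55.1 and 55.3 CPM in sham and 302, 894 and 396 CPM in vehicle (3.25 ± 0.40, adjusted p = 0.00686). Laptm5, a lysosomal membrane protein of blood cells, rose from 30.2, 28.5 and 33.9 CPM to 150.3, 295 and 202 CPM (2.80 ± 0.24, adjusted p = 0.00643). Lamp1, a coat protein of all lysosomes, rose less, from 418 to 444 CPM to 586, 981 and 649.5 CPM (0.78 ± 0.19, adjusted p = 0.0259). The acid glucosidase gene Gaa did not pass (0.08 ± 0.12, adjusted p = 0.642), and Atp6v1b2, the brain form of a proton pump subunit, fell (-0.36 ± 0.09, adjusted p = 0.03). Gusb, a lysosomal enzyme often used as a reference gene, went from 15.6, 16.3 and 16.7 CPM to 106, 292 and 135 CPM (3.45 ± 0.39, adjusted p = 0.00686).

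The promoter of Ctsd is shown for the E-box of the CLEAR element, through which TFEB drives lysosomal genes. TCACGTGA was found in 1.425% of all promoters and in 1 of 16 of the lysosome list, that of Ctsd, and in 0.812% of those of genes higher by at least 2-fold. The stretch lies at chr7:142387828-142388077 on the minus strand, and the capitals mark the match, starting at position -99. The gene interval given above comes from another annotation with an earlier start, so most of the stretch, with the match, lies inside that interval.
Ctsd: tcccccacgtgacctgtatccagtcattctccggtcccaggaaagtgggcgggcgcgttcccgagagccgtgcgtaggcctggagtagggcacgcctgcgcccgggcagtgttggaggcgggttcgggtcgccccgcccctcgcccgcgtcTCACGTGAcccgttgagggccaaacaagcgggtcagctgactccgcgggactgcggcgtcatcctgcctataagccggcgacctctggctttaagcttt

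Genes that handle lipid from engulfed membranes rose in 10 of 14 cases with a median of 1.31, and in 4 without sham replicate 1. Among 13 well-counted members 9 rose, with a median of 0.99. Msr1, a scavenger receptor for modified lipoproteins, was at 0.581, 0.738 and 0.53 CPM in sham and 43.7, 112 and 17.3 CPM in vehicle (6.53 ± 0.85, adjusted p = 0.00725). Abca1, which exports cholesterol from cells, was at 50.6, 46.1 and 44.5 CPM in sham and 186, 421 and 141 CPM in vehicle (2.40 ± 0.39, adjusted p = 0.011). Plin2 was at 7.29, 8.32 and 9.64 CPM in sham and 131, 354 and 59.5 CPM in vehicle (adjusted p = 0.0096). The fatty acid carriers of astrocytes and progenitors, Fabp7 (0.04 ± 0.16, adjusted p = 0.863) and Fabp5 (0.46 ± 0.29, adjusted p = 0.276), did not pass.

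Genes of cholesterol synthesis and its regulation fell in 17 of 21 cases, the largest share of lower genes in any of the lists, with none higher and a median of -0.85. Hmgcs1, which makes HMG-CoA (chromosome 13, 119690379 to 119708260), was at 395, 417 and 454 CPM in sham and 167, 119.7 and 257 CPM in vehicle (-1.22 ± 0.26, adjusted p = 0.0181). Msmo1, a demethylase of the sterol ring, was at 101, 119 and 140.2 CPM in sham and 47.2, 33.6 and 67.0 CPM in vehicle (-1.28 ± 0.25, adjusted p = 0.015). For both, replicate 2 was the lowest and replicate 3 the highest vehicle library, and none reached the lowest sham value. The sterol sensor Insig1, known to respond to SREBP, the regulator of this pathway, fell too (-0.95 ± 0.15, adjusted p = 0.0103). Mvk, Pmvk, Hsd17b7 and Ebp did not pass. The count was 18 with an offset for GC content, and 8 without sham replicate 1.

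The promoter of Hmgcs1 was searched for the sterol response element through which SREBP acts. The 10-letter form (ATCAC, any base, CCAC) was found in 0.145% of all promoters and in none of 15 of this list. The 9-letter form (TCAC, any base, CCAC), a spelling added after the sequence had been seen, was found in 0.896% of all promoters and in 1 of the 15, that of Hmgcs1. The stretch lies at chr13:119690101-119690350 on the plus strand, and the capitals mark the match, starting at position -137.
Hmgcs1: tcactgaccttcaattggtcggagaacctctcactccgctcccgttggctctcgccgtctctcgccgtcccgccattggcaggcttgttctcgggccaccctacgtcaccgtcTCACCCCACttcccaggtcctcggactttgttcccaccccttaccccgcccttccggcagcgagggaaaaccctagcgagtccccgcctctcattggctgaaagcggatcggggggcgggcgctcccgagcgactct

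**Figure D3:**
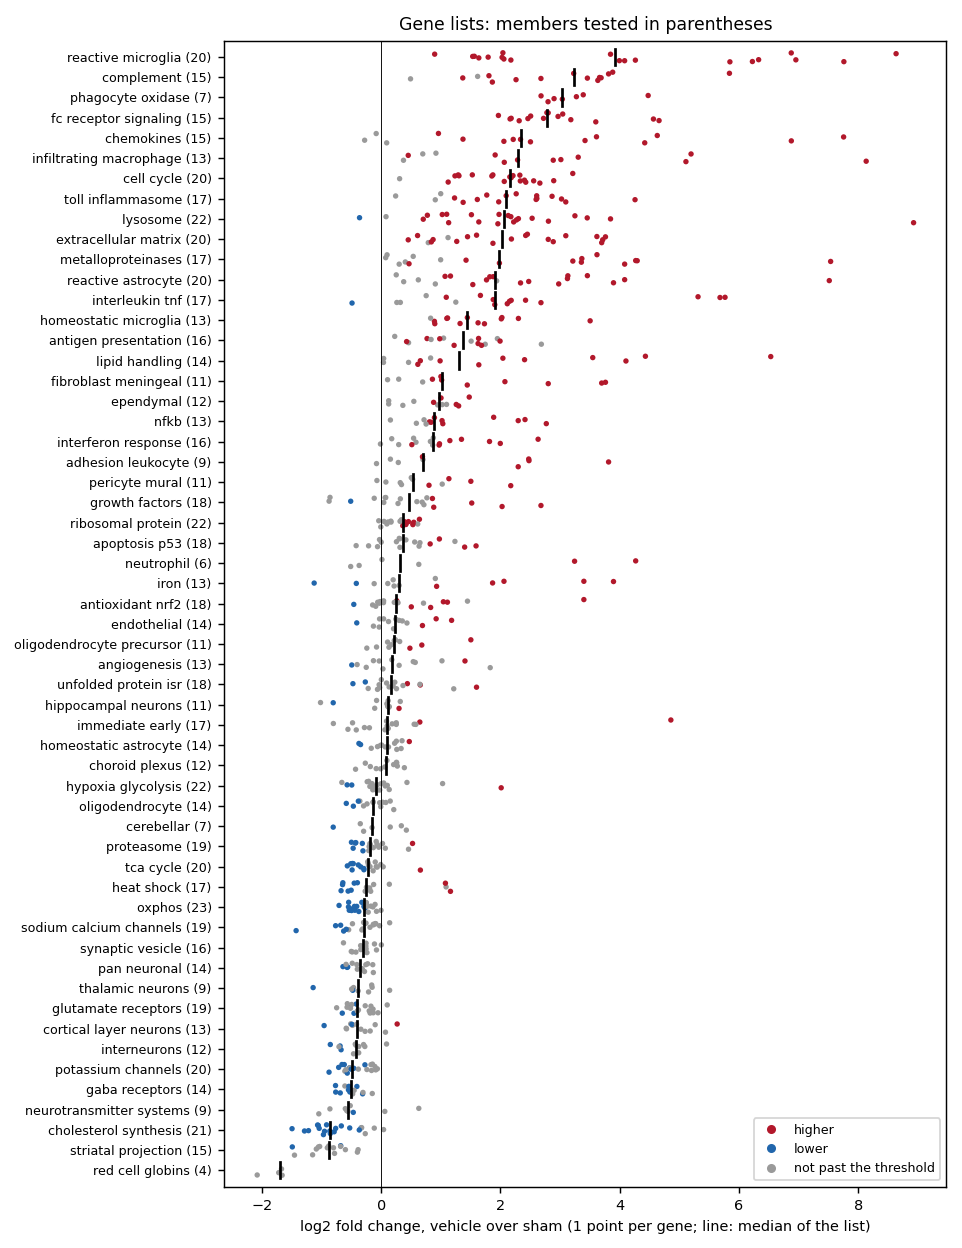
Log2 fold change of vehicle over sham for every measured member of the gene lists (1 point per gene, members tested in parentheses, black line at the list's median), with red and blue for genes past the threshold. Lists of phagocytes, matrix and cell division lie to the right, with the median of reactive microglia at 3.92, and cholesterol synthesis lies to the left at -0.85 with mostly blue points.

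Astrocytes around a lesion become reactive and build a glial border. Of 20 genes of that state 15 rose and none fell, with a median of 1.91, and 4 passed without sham replicate 1. Of 15 well-counted members 11 rose, with a median of 1.77. Vim, the intermediate filament vimentin, was at 34.9, 37.6 and 44.9 CPM in sham and 179, 626 and 217 CPM in vehicle (3.12 ± 0.49, adjusted p = 0.0101). Timp1, an inhibitor of matrix proteases, was at 0.264, 0.474 and 0.424 CPM in sham and 5.66, 9.77 and 4.55 CPM in vehicle (4.08 ± 0.41, adjusted p = 0.00682). Lcn2, an iron-binding lipocalin, was at 0.158, 0.685 and 0.424 CPM in sham and 7.38, 9.87 and 1.89 CPM in vehicle (3.89 ± 0.73, adjusted p = 0.0146). Vimentin and lipocalin are made by macrophages and vessels as well, and the part of those cells in the values was not tested. With an offset for GC content 11 rose.

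Of 14 genes of resting astrocytes 1 rose and 2 fell, and the median was 0.10. Aqp4, the water channel of astrocyte endfeet, rose from 176, 171 and 193 CPM to 217, 299 and 232 CPM (0.47 ± 0.13, adjusted p = 0.0381). Slc1a2, the main glutamate transporter, fell from 2599, 2629 and 2684 CPM to 2074, 2002 and 2155 CPM (-0.34 ± 0.09, adjusted p = 0.0319). Slc4a4, a bicarbonate transporter, fell from 195 to 219 CPM to 154, 169.6 and 158 CPM (-0.37 ± 0.08, adjusted p = 0.0193), and its call and that of Slc1a2 were lost with an offset for GC content. Of 14 oligodendrocyte genes 3 fell and none rose, with a median of -0.13, beside 11.7% lower over all genes. Mbp, the myelin basic protein, was at 3408, 3313 and 3533 CPM in sham and 3463, 4254 and 4159 CPM in vehicle (0.21 ± 0.11, adjusted p = 0.203). Ugt8a, the enzyme of myelin galactolipids, fell by 0.58 ± 0.16 on the log2 scale (adjusted p = 0.034), and this call was lost without vehicle replicate 1 and with the GC offset. Of the precursor genes 3 of 11 rose, led by Cspg4, the NG2 proteoglycan shared with pericytes, from 13.6 to 14.7 CPM to 31.4, 58.5 and 29.5 CPM (1.5 ± 0.26, adjusted p = 0.0126).

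Extracellular matrix genes rose in 18 of 20 cases, with a median of 2.03, and vehicle replicate 2 carried the highest level of most. Col1a1, fibrillar collagen of scars, was at 15.4, 12 and 13.7 CPM in sham and 106, 382 and 68.6 CPM in vehicle (3.76 ± 0.66, adjusted p = 0.0125). Col3a1 was at 16.2, 12.7 and 15.7 CPM in sham and 104, 392 and 81.1 CPM in vehicle (3.70 ± 0.63, adjusted p = 0.0118). Fn1, fibronectin, was at 70.6, 61.0 and 64.8 CPM in sham and 452, 733 and 266 CPM in vehicle (2.89 ± 0.35, adjusted p = 0.00686). Laminin chains changed less, with Lamc1 from 37.3, 38.9 and 40.2 CPM to 59.3, 84.2 and 69.5 CPM (0.87 ± 0.13, adjusted p = 0.00869). Postn, a matrix protein of scars, did not pass (1.12 ± 0.48, adjusted p = 0.12). Without vehicle replicate 2 the count was 18 as well, and without sham replicate 1 it was 2. Fibroblast and meningeal markers moved with these genes, 8 of 11 higher with a median of 1.01 and a summed level of 371 to 441 CPM in sham and 775.5, 1982 and 831 CPM in vehicle. Of these 11, 1 passed without sham replicate 1. Several collagens are in both lists, and the part of meninges in the samples was not tested.

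Enzymes that cut matrix and their inhibitors rose in 11 of 17 cases with a median of 1.98. Among 11 well-counted members 5 rose, and their median was 0.54. Mmp12, the elastase of macrophages, was at 0.158, 0 and 0.424 CPM in sham and 36.8, 70.9 and 3.63 CPM in vehicle, the last far below the others. Plau, the urokinase that activates plasmin, was at 4.38, 3.27 and 4.34 CPM in sham and 28.6, 70.7 and 23.6 CPM in vehicle (3.36 ± 0.45, adjusted p = 0.00781). Mmp9, the gelatinase often studied in stroke, did not pass, at 4.96, 2.37 and 3.81 CPM in sham and 6.03, 4.79 and 3.97 CPM in vehicle (0.41 ± 0.31, adjusted p = 0.353). The count was 6 of the 13 members still tested without vehicle replicate 3, and 2 of 17 without sham replicate 1.

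Of 14 endothelial genes 3 rose and 1 fell (median 0.23), a share near the 25.4% called over all genes. Of 11 pericyte and smooth muscle genes 4 rose and 0 fell (median 0.53), beside 13.7% higher over all genes. Of these 11, 10 were positive, and 6 rose by DESeq2 but 0 without sham replicate 1. Cldn5, the tight junction protein of brain endothelium, was at 28.1, 24.7 and 28.8 CPM in sham and 30.6, 32.5 and 31.2 CPM in vehicle (0.21 ± 0.09, adjusted p = 0.121). Vwf, von Willebrand factor, rose from 29.8, 32.2 and 25.3 CPM to 41.4, 101 and 55.7 CPM (1.18 ± 0.31, adjusted p = 0.0327), and Slco1a4, an anion transporter of the barrier, fell from 46.6, 47.5 and 39.4 CPM to 33.9, 30.5 and 36.1 CPM (-0.41 ± 0.10, adjusted p = 0.0298). With an offset for GC content 1 endothelial gene rose and none fell. Vegfa, the main vessel growth factor, fell (-0.49 ± 0.14, adjusted p = 0.0416), a call lost without vehicle replicate 1, and 11 of 13 angiogenesis genes did not pass. Of 12 ependymal and cilia genes 5 rose, with a median of 0.98, led by the cilia factor Foxj1, from 6.02, 8.59 and 6.57 CPM to 16.3, 28.6 and 14 CPM (1.48 ± 0.29, adjusted p = 0.0158). The count was 0 without sham replicate 1.

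Cell division genes rose in 19 of 20 cases, with a median of 2.17, 18 of them among the 19 well-counted members, and Pcna, which also serves repair, was the exception (0.31 ± 0.16, adjusted p = 0.179). Mki67, the marker of cycling cells, was at 3.49, 4.79 and 5.14 CPM in sham and 26, 51.4 and 22.3 CPM in vehicle (2.89 ± 0.35, adjusted p = 0.00686). Cdk1, the kinase of mitosis, was at 1.27, 0.79 and 1.48 CPM in sham and 5.87, 18.5 and 8.56 CPM in vehicle (3.21 ± 0.49, adjusted p = 0.00986). Rrm2, which supplies nucleotides for DNA synthesis, rose from 2.32 to 2.69 CPM to 11, 21.6 and 7.4 CPM (2.40 ± 0.40, adjusted p = 0.0112). These are sums over all cell types of the sample, and which cells divided was not measured. The count was 15 with an offset for GC content and 2 without sham replicate 1.

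The promoter of Cdk1 holds the letters read by E2F factors. TTTCGCGC on either strand occurred in 0.444% of all promoters and in 3 of 18 of the cell division list, those of Cdk1, Mcm5 and Mcm6. The stretch lies at chr10:69352913-69353162 on the minus strand, and the capitals mark the match, starting at position -131.
Cdk1: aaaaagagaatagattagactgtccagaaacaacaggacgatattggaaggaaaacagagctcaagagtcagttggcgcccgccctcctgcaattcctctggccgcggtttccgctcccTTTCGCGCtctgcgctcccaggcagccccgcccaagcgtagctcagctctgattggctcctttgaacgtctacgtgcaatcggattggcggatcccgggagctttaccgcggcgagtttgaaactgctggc

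Stress programs were mixed. Hmox1, the heme-degrading enzyme, was at 4.38, 5.69 and 6.09 CPM in sham and 61.9, 86.0 and 22.7 CPM in vehicle (3.40 ± 0.48, adjusted p = 0.00866), while most other NRF2 targets did not pass, with 6 of 18 higher, 1 lower and a median of 0.24. Atf3, a transcription factor of injured neurons and macrophages, was at 0.95, 0.211 and 0.742 CPM in sham and 10.9, 35.5 and 9.19 CPM in vehicle (4.86 ± 0.72, adjusted p = 0.00955), but of the 17 immediate early genes it and Jun alone rose. Fos was at 8.45, 11.7 and 23.7 CPM in sham and 7.69, 8.79 and 29.3 CPM in vehicle (adjusted p = 0.944), and replicate 3 was the highest library of both groups for Fos, Egr1, Arc and Dusp1. The list score was -0.06, -0.35 and 0.82 in vehicle. Without vehicle replicate 3, 6 of the 17 were lower and 2 higher. The median was then -0.48, against 0.10 with all 6 libraries. Of the p53 and apoptosis genes 4 of 18 rose, among them Casp8 (1.59 ± 0.31, adjusted p = 0.015), and the p53 target Cdkn1a did not pass (0.56 ± 0.30, adjusted p = 0.203). Of hypoxia and glycolysis genes 1 of 22 rose, Hk2, from 4.17, 4.06 and 3.34 CPM to 10.5, 21.9 and 14.3 CPM (2.01 ± 0.28, adjusted p = 0.00801), and 2 fell, with a median of -0.08. Of heat shock genes 7 of 17 fell and 2 rose, with a median of -0.25. Without sham replicate 1, 1 fell and 0 rose, and with an offset for GC content 1 fell and none rose. Dnaja1, a co-chaperone of HSP70, was at 291, 297 and 331 CPM in sham and 202, 163 and 224 CPM in vehicle (-0.64 ± 0.13, adjusted p = 0.0158), a call lost with that offset.

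Iron genes moved in both directions, with 5 of 13 higher and 2 lower. Ftl1, the light chain of the iron store ferritin, was at 282, 275 and 312 CPM in sham and 838, 2056 and 727 CPM in vehicle (2.06 ± 0.39, adjusted p = 0.0146), whereas the heavy chain Fth1 did not pass (0.22 ± 0.16, adjusted p = 0.34). Trf, the transferrin made by oligodendrocytes, rose from 212 to 234 CPM to 326, 509 and 434 CPM (0.93 ± 0.16, adjusted p = 0.0112). Tfrc, the receptor that brings transferrin into cells, had one of the smallest p-values among lower genes (adjusted p = 0.00643) and was at 149.8, 141 and 147 CPM in sham and 57.4, 71.0 and 72.8 CPM in vehicle. Ireb2, an RNA-binding regulator of iron, fell by 0.42 ± 0.07 on the log2 scale (adjusted p = 0.0112), a call lost with the GC offset.

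In the list of oxidative phosphorylation 15 of 23 fell and none rose, with a median of -0.29, and 9 of 20 genes of the citric acid cycle and pyruvate dehydrogenase fell, with a median of -0.22. Uqcrb, a subunit of complex III, was at 86.6, 102 and 97.3 CPM in sham and 52.4, 53.3 and 53.1 CPM in vehicle (-0.85 ± 0.08, adjusted p = 0.00643), and it overlaps Gm10767 on the opposite strand. Ndufv2, a subunit of complex I, was at 145, 165 and 169 CPM in sham and 112, 103 and 114 CPM in vehicle (-0.54 ± 0.09, adjusted p = 0.01). Atp5c1, a subunit of ATP synthase, was at 265, 270.0 and 277 CPM in sham and 209 CPM in each vehicle library (-0.37 ± 0.07, adjusted p = 0.0141). Mtch2, which inserts proteins into the outer membrane, fell from 102, 103 and 105 CPM to 70.1, 68.6 and 71.7 CPM (-0.56 ± 0.06, adjusted p = 0.00682). Idh2 was the member of the cycle that rose (0.66 ± 0.16, adjusted p = 0.0268), and Cox4i1 (-0.00 ± 0.09, adjusted p = 0.988) did not pass. The counts that fell were 9 and 4 with an offset for GC content, with medians of -0.30 and -0.21, and 6 and 3 without sham replicate 1.

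Ribosomal protein genes rose in 11 of 22 cases with a median of 0.37. Rpl10a was at 149.8, 138 and 167 CPM in sham and 217, 293 and 199.5 CPM in vehicle (0.64 ± 0.15, adjusted p = 0.0253). Eef1a1, the elongation factor and by FPKM the most abundant of the higher genes in sham, was at 2856, 2916 and 3063 CPM in sham and 3895, 5014 and 4041 CPM in vehicle (0.55 ± 0.13, adjusted p = 0.0213). The count of ribosomal protein genes was 5 with an offset for GC content and 0 without sham replicate 1, and near-identical copies make these genes uncertain. Proteasome genes fell in 6 of 19 cases, 2 with that offset, and Psme1, a subunit of the interferon-induced activator, rose (0.53 ± 0.13, adjusted p = 0.0249).

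All 14 pan-neuronal genes had negative log2 fold changes, with a median of -0.36 and no overlap between the groups for 12, and 3 passed. Over all genes 25.1% were lower without overlap and 11.7% passed as lower. Their summed level was 12114 to 12266 CPM in sham and 10043, 7276 and 10184 CPM in vehicle. Snap25, a protein of vesicle fusion, was at 2872, 2872 and 2843 CPM in sham and 1975, 1314 and 2221 CPM in vehicle (-0.64 ± 0.19, adjusted p = 0.0431), and this call was lost without vehicle replicate 1 and with the GC offset. Nefl, the light neurofilament, was at 482, 470.0 and 453 CPM in sham and 331, 251 and 364 CPM in vehicle (-0.57 ± 0.14, adjusted p = 0.0256). Rbfox3, which encodes NeuN, did not pass (-0.14 ± 0.15, adjusted p = 0.502). Of 16 synaptic vesicle genes none passed by edgeR, where 4 had an unadjusted p under 0.05, 5 did by DESeq2, and 15 were negative. Without vehicle replicate 2, 8 pan-neuronal and 6 vesicle genes passed. Without sham replicate 1, 0 of either list passed, with medians of -0.39 and -0.29.

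Of 14 GABA receptor genes 9 fell, with a median of -0.51, and 13 had no overlap between the groups. Gabra4, a subunit of extrasynaptic receptors, was at 162, 173 and 165 CPM in sham and 113, 77.4 and 104 CPM in vehicle (-0.76 ± 0.14, adjusted p = 0.0126). Of 20 potassium channel genes 9 fell (median -0.48), of 19 glutamate receptor genes 4 (median -0.40), and of 19 sodium and calcium channel genes 5 (median -0.29), and none rose in any of these. Kcns2, a modulatory potassium channel subunit outside the list, had little spread, at 47.5, 45.8 and 43.8 CPM in sham and 26.6, 23.3 and 26.1 CPM in vehicle (-0.85 ± 0.09, adjusted p = 0.00682). With an offset for GC content 1 GABA receptor gene (median -0.31), 2 potassium channel genes (-0.34), no glutamate receptor gene (-0.28) and 1 sodium or calcium channel gene (-0.29) fell, beside 4 of the 14 pan-neuronal genes (-0.39). Without sham replicate 1, 1 GABA receptor gene fell (median -0.52). In that fit 0 potassium channel (-0.48), 0 glutamate receptor (-0.42) and 0 sodium or calcium channel genes (-0.28) fell.

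Among markers of neuron classes the genes of inhibitory neurons fell in 3 of 12 cases, with a median of -0.43, beside 11.7% lower over all genes. The count was 0 without sham replicate 1, with a median of -0.43. Gad1, which makes GABA, was at 461, 487 and 495 CPM in sham and 352, 217 and 327 CPM in vehicle (-0.69 ± 0.17, adjusted p = 0.0293), a call lost with the GC offset. Slc17a6, a vesicular glutamate transporter of deep brain regions, was at 46.8, 55.2 and 40.6 CPM in sham and 20, 21.2 and 23.6 CPM in vehicle (-1.14 ± 0.13, adjusted p = 0.00686). Foxp2, of deep cortical layers and striatum, fell from 24.4, 29.6 and 25.4 CPM to 16.3, 10.4 and 14.3 CPM (-0.96 ± 0.17, adjusted p = 0.0127), and Calb1, the calcium buffer calbindin, from 219, 219.6 and 229 CPM to 158, 94.7 and 129 CPM (-0.80 ± 0.17, adjusted p = 0.0183). In the cortex list 2 of 13 fell and 1 rose, and in the hippocampus list 1 of 11 fell and 1 rose, shares no larger than the 25.4% called over all genes. Cort, the peptide cortistatin of interneurons, fell from 3.22, 2.90 and 4.19 CPM to 1.14, 0.488 and 1.6 CPM (-1.67 ± 0.42, adjusted p = 0.027). Pcp4, a calmodulin-binding peptide, fell from 343, 375 and 352 CPM to 179.6, 94.3 and 175 CPM (-1.25 ± 0.23, adjusted p = 0.0141).

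Genes of striatal projection neurons split the vehicle group. Of 15 members 2 fell, with a median of -0.88 and all 15 negative. The list score was -0.10 to 0.12 in sham, -0.14 in vehicle replicate 1, -1.74 in replicate 2 and -1.37 in replicate 3, so replicate 1 lay just below the sham range. Drd1, the D1 dopamine receptor, was at 53.6, 64.9 and 48.5 CPM in sham and 45.3, 14.6 and 20.8 CPM in vehicle (-1.05 ± 0.38, adjusted p = 0.0807). Penk, the enkephalin precursor, was at 322, 345 and 321 CPM in sham and 481, 74.9 and 96.4 CPM in vehicle (-0.60 ± 0.65, adjusted p = 0.52). Tac1, the substance P precursor, was lower in all 3, from 55.4, 64.8 and 64.2 CPM to 33.4, 10.9 and 21.4 CPM (-1.49 ± 0.35, adjusted p = 0.0234). Scn4b, a sodium channel subunit abundant in striatum, fell from 356, 326 and 288 CPM to 197, 53.3 and 111 CPM (-1.42 ± 0.41, adjusted p = 0.0431), and its call was lost without replicate 2, without replicate 3 and with the GC offset. Without vehicle replicate 1, 14 of the 15 list members passed, all lower. A loss of these neurons and a sample that held less striatum cannot be told apart.

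Markers of other tissue in the sample moved by library rather than by group. Ttr, the transthyretin of the choroid plexus, was at 822, 645 and 336 CPM in sham and 9.40, 1115 and 1030.0 CPM in vehicle, and the choroid plexus score was -2.39 in vehicle replicate 1 against 0.56 and 0.59 in the others, with none of 12 genes past the threshold by edgeR, DESeq2 or limma voom and 0 at an unadjusted p under 0.05 by edgeR. Red cell transcripts were low in vehicle replicates 1 and 2: Hbb-bs was at 116, 119 and 83.7 CPM in sham and 7.59, 1.95 and 87.3 CPM in vehicle (-1.72 ± 1.06, adjusted p = 0.262). Globin genes are near-identical, and none of 4 members passed by edgeR or DESeq2 or had an unadjusted p under 0.05 by edgeR, whereas 2 were lower by limma voom and all 4 by edgeR without vehicle replicate 3. Vehicle replicates 1 and 3, which differed in striatal, choroid plexus and red cell transcripts, had scores of 3.30 and 3.42 for reactive microglia, 1.39 and 1.36 for matrix and 1.55 and 1.41 for cell division.

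**Figure D4:**
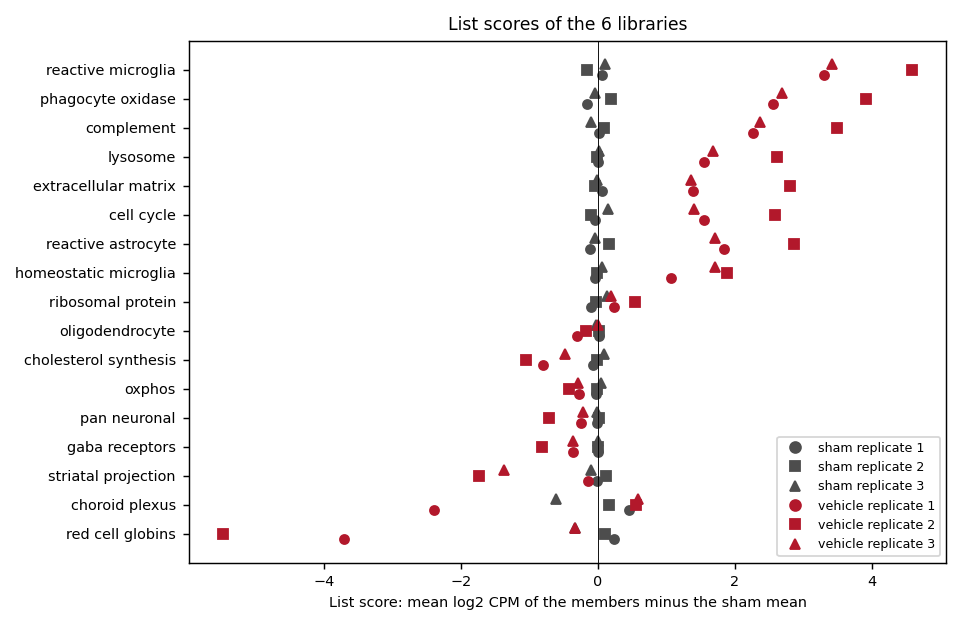
Score of 17 gene lists in each of the 6 libraries (average log2 CPM over members, with 0 at the sham mean), with grey markers for sham, red for vehicle and a shape per replicate number. The vehicle libraries lie together above sham for reactive microglia (3.30 to 4.59) and apart from each other for striatal projection neurons, choroid plexus and red cell globins.

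Calls also followed the base composition of transcripts. The median GC content was 52.8% for higher genes, 43.4% for lower genes and 50.4% for genes not past the threshold. In the lowest of 10 equal groups by GC content 36.3% were lower and 4.49% higher, and in the highest 1.09% were lower and 17.5% higher. Across 14699 genes the correlation of log2 fold change with GC content was 0.184 (Pearson's r, across genes, which are not independent replicates). Genes of the lowest group lay 0.0932 to 0.201 above the library average over both groups (log2 scale) in sham, and their deviations were -0.169 to -0.123 in vehicle. With an offset for this trend 1353 genes were higher and 505 lower, so that 72.8% of the calls were higher against 54.0% without it, and 1240 and 408 of the original calls remained. Every vehicle library lay on one side, so composition and group cannot be told apart from these libraries alone. With the offset the list medians went from -0.51 to -0.31 for GABA receptors, from -0.48 to -0.34 for potassium channels and from -0.40 to -0.28 for glutamate receptors. They were as large or larger with it for pan-neuronal genes (-0.36 and -0.39), synaptic vesicle genes (-0.30 and -0.38) and oxidative phosphorylation (-0.29 and -0.30). Counting without a known strand setting is a further limit, as 31.2% of higher, 28.7% of lower and 30.1% of all genes overlapped a gene on the opposite strand.

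**Figure D5:**
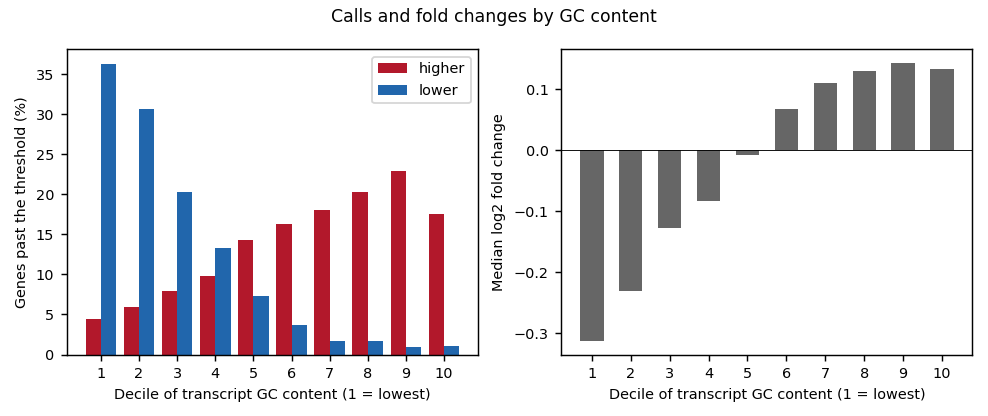
Genes past the threshold (left, percent of each decile, red higher and blue lower) and median log2 fold change (right) for 10 equal groups of genes ordered by transcript GC content, decile 1 the lowest. Lower calls decline from 36.3% in decile 1 to 1.09% in decile 10 and the median fold change climbs from -0.31 to 0.13.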

How the data were processed

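Polyadenylated RNA from mouse brain, extracted with a mirVana kit, was sequenced with the TruSeq Stranded mRNA kit, per the labels' protocols. The deposited table held counts per gene and FPKM values, per the file headers. Trimmomatic, HISAT2, Cufflinks, DESeq and the builds GRCm38 and mm10 are named in the submitters' processing notes, but no source used here states their versions, their roles or the strand setting. A strand setting that merged both strands would mix overlapping genes. From the deposited counts, CPM with TMM factors and edgeR's quasi-likelihood fit (edgeR 4.0.16, limma 3.58.1, DESeq2 1.42.0, R 4.3.3) were computed on 3 sham and 3 vehicle libraries. The fit had no covariate and 4 residual degrees of freedom, and the threshold was a Benjamini-Hochberg adjusted p under 0.05. A prior count of 2 served only the log2 CPM values behind scores, principal components and the GC offset. The fit kept its default prior count. The biological coefficient of variation was 16.4%. The value beside each log2 fold change is its SE. FPKM as the authors deposited them served in limma alternatives and to rank levels between genes. A GENCODE annotation of GRCm38 matched 18524 genes (97.9%), and 1 count column of no sample was not used.

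The 59 gene lists held 872 genes, of which 868 were in the table and 820 were tested, and 44 were in more than 1 list. Members and lists were chosen with earlier results of these data known. Genes were named by rule among those of at least 1 CPM in the higher group whose groups did not overlap, leaving out predicted genes: the 12 largest changes each way with at least 1 CPM in both groups, 6 near 0 in sham, the 8 smallest p-values each way, up to 4 per list and the 6 of highest FPKM each way, 223 in all. Well-known markers could be named whether or not they passed, and other list members and Gm12407 were named after their values had been seen. The fit was tested on simulated counts of 14696 genes for this comparison, where it recovered 83% of 2-fold and 97% of 4-fold changes with 9 false calls in 189. The simulation gave both groups the same spread and changed far fewer genes than were called here. The real vehicle libraries varied more than the sham libraries, so these rates need not hold for them. Detection at 3 counts corresponds to 0.145 to 0.159 CPM, and this covers counting error only. Counts over well-counted list members were added after seeing the data. Alternatives changed the normalization, filter, test, unit, libraries, GC offset and replicate block. Values of some list members are not reported here.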

Additional observations from a re-analysis of the deposited data

How the results depend on the processing

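The counts of 2028 higher, 1729 lower, 1108 at least 2-fold higher and 59 at least 2-fold lower genes stayed within 1.5 times under DESeq2, limma voom, RLE and upper quartile factors, filterByExpr, no filter on low counts, limma on log2(FPKM + 0.1) and the fit of all libraries but JU replicate 1. With the GC offset, 505 genes were lower and 30 lower by at least 2-fold. With all 15 libraries in 1 fit the counts were 126, 678, 50 and 10. Limma on log2(FPKM + 0.1) with no filter gave 1057 lower genes, and on log2(FPKM + 1) it gave 551 at least 2-fold higher and 21 at least 2-fold lower. Leaving out 1 library at a time gave 2 to 2093 higher and 0 to 2229 lower genes, with 2 to 1207 and 0 to 117 at least 2-fold. The lowest of these came without sham replicate 3, where the smallest adjusted p was 0.0208, and the highest 2-fold counts without vehicle replicate 1. Without vehicle replicate 2 the count of at least 2-fold higher genes was 716, and without vehicle replicate 3 that of at least 2-fold lower genes was 90. In each fit without a vehicle library 3633 of the called genes were still tested. Same-numbered sham and vehicle libraries did not deviate together over all genes (r of -0.06, 0.01 and -0.03), and no sham library correlated best with its own number. Replicate 3 was nonetheless the highest library of both groups for some immediate early genes. Whether same-numbered samples share more than a number was not tested. With a replicate block 1549 genes were higher and 1139 lower, and with the block and the GC offset 1060 and 226, with 32 at least 2-fold lower. Dnajb9, a chaperone of the endoplasmic reticulum, changed sign from -0.27 to 0.016 with the GC offset and to 0.017 with offset and block. The cause of these shifts was not tested.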

Other observations

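On chromosome 4 a group of genes was nearly absent from the vehicle libraries while present in sham, a pattern noticed after the values were seen. Ccl21b, a chemokine gene (chromosome 4, 42255767 to 42256432, GRCm38), had 58, 41 and 59 counts in sham and 1, 2 and 2 counts in vehicle. Across the treated groups it had 0, 0 and 138 counts in the JA libraries, 1, 3 and 81 counts in the UA libraries and 2, 50 and 62 counts in the JU libraries, so that libraries of 1 group differed from near 0 to the sham level or above. The predicted gene Gm12407 had 82, 72 and 84 counts in sham and 0, 6 and 0 counts in vehicle. Ccl27b had 107, 180 and 123 counts in sham and 18, 17 and 19 counts in vehicle, with 222 counts in JA replicate 3 and 164 counts in UA replicate 3. LOC101055676, which RefSeq places on the same chromosome, had 20, 42 and 19 counts in sham and 0 counts in every vehicle library. Ccl27a, a neighbour, did not pass by edgeR (log2 fold change -0.15, adjusted p = 0.643) and had 290.0 to 992 counts over all 15 libraries. Ccl21b and Ccl27b belong to families with near-identical copies, so their counts are uncertain.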
